A study of Mus musculus with 15 samples.

Results

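Integrins are receptors that join the matrix outside a cell to the actin cytoskeleton inside it, and each is a pair of 1 alpha and 1 beta subunit. The 9 subunits described here are known from cells of the oligodendrocyte lineage: the beta subunits Itgb1, Itgb3, Itgb5 and Itgb8 and the alpha subunits Itga3, Itga6, Itga7, Itga9 and Itgav. They were picked by name and matched by symbol, and all 9 were found among the 45706 genes listed in each file. In this lineage, laminin receptors built from Itga6 and Itgb1 are known for survival and myelination, and receptors built from Itgav with changing beta partners are known for division, migration and differentiation, largely from work in rodent cultures. The alpha subunits mostly set which matrix protein is bound, and the tails of the beta subunits link to actin through talin and kindlin. The study compared such cells with and without SRF, a transcription factor that acts on genes of the actin cytoskeleton.

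RNA was sequenced from primary cultures of oligodendrocyte precursor cells (OPCs), immunopanned from brains of SRF-floxed/floxed mice, and from such cells turned towards oligodendrocytes (OLs). The groups were SRF-KO OPC (3 libraries, AAV-CRE) and control OPC (4 libraries, AAV-deleted CRE), infected on day 3 of culture and frozen 48 hours later, and SRF-KO OL (4 libraries, a lentivirus with CRE and GFP) and control OL (4 libraries, a GFP lentivirus), infected on day 6 and frozen on day 3 of differentiation. All 15 libraries came from floxed cells, so no group shows Cre without floxed alleles, and an effect of Cre itself cannot be told apart from loss of SRF. The treatment tag of the SRF-KO OLs ends in "control" and the series text speaks of other cells and an Olig2-Cre, so groups were taken from the sample titles. The labels do not say whether replicates came from separate animals or cultures. If they did not, p-values measure a spread that may be technical.

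Library totals were 9074812 to 15125229 expected counts in SRF-KO OPCs and 8964310 to 16026511 in control OPCs, and 4303739 to 11721394 in SRF-KO OLs and 7188698 to 13139258 in control OLs. Srf itself averaged 0.21 ± 0.0127 normalised CPM in SRF-KO OPCs (SD, n = 3) against 7.86 ± 1.7 in control OPCs (SD, n = 4), and 3.03 ± 0.957 in SRF-KO OLs against 8.27 ± 0.972 in control OLs (SD, n = 4 each). CPM is a library's count divided by its size, here after TMM scaling within a stage. SRF-KO OPC replicate 2 stood apart on the first principal component of the OPC libraries (47.6, against -23 to 6 for the other 6), and SRF-KO OL replicate 4 on that of the OL libraries (80.5, against -18.8 to 0.4 for the other 7). The fitted Srf level was 0.0279 of the control level in SRF-KO OPCs and 0.367 of it in SRF-KO OLs, both called in edgeR (adjusted p = 0.000569 and 0.0225). The 8 OPC markers were present in every OPC group, with a summed level of 4920 to 6421 CPM in SRF-KO OPCs and 6580 to 6931 in control OPCs. The 10 OL markers summed to 15011 to 21331 CPM in SRF-KO OLs and 22007 to 41438 in control OLs. The OL libraries also held all 8 astrocyte markers, at 8846 to 14010 CPM in SRF-KO OLs and 17067 to 34480 in control OLs, and Gfap alone made 4769 to 8959 and 12232 to 28173 of these. In the OPC libraries the same 8 markers summed to 1410 to 1518 CPM in SRF-KO OPCs and 1154 to 1265 in control OPCs. Of the 10 microglia markers, 9 averaged under 1 CPM in each OPC group and 5 in each OL group. Itgam was under 1 CPM in every library, whereas Cx3cr1, P2ry12, C1qa and C1qb lay at 0.702 to 5.02 CPM over the OL libraries. The 8 neuron markers summed to 44.6 to 54.8 CPM over the OPC libraries and 112 to 184 over the OL libraries. The 8 fibroblast and mural markers summed to 1.86 to 4.92 and 37.3 to 72.3 CPM, with Acta2 alone at 32.6 to 66.3 in OLs. The 8 endothelial markers stayed at 0.719 to 1.5 CPM in SRF-KO OPCs and 0.515 to 1.96 in control OPCs, and at 8 to 13.2 in SRF-KO OLs and 10.8 to 11.8 in control OLs, with Cldn5 at 0 in all 15 libraries.

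Per transcript length, Itgb1 was the most abundant of the 9 subunits in OPCs, and Itgav and Itga6 were the leading alpha subunits. Levels between genes are compared here in TPM, which divides counts by length, and in OPCs alone, because the OPC files list lengths of spliced transcripts whereas the OL files list lengths of whole gene bodies. Itgb1, the partner of many alpha subunits, had 226, 198 and 235 TPM in SRF-KO OPCs and 200, 224, 295 and 271 TPM in control OPCs. It made up 87.84% to 89.89% of the summed TPM of the 4 beta subunits in SRF-KO OPCs and 88.36% to 89.72% in control OPCs. Itgb8, which pairs with Itgav and is known to activate latent TGF-beta, came next among the beta subunits, with 8.75% to 10.64% in SRF-KO OPCs and 9.12% to 10.27% in control OPCs. Itgb5 and Itgb3, vitronectin-binding partners of Itgav, each held under 2% of that sum in every OPC library.

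Among the 5 alpha subunits, Itgav, the common partner of RGD-binding beta subunits, held 54.06% to 64.3% of the summed TPM in SRF-KO OPCs and 52% to 59.29% in control OPCs. Itga6, a laminin-binding subunit, held 31.82% to 39.03% in SRF-KO OPCs and 34.24% to 38.23% in control OPCs. Itga7 and Itga3, also laminin-binding, and Itga9, which pairs with Itgb1 and binds tenascin-C and osteopontin, made up the rest. The shares of all 9 subunits overlapped between SRF-KO and control OPCs. By mean level in control OPCs the order was Itgb1 (248 TPM), Itgav (36.5), Itgb8 (26.8), Itga6 (23.0), Itga7 (3.78), Itgb5 (3.59), Itga9 (1.43), and Itga3 and Itgb3 (0.315 each). The ranges of Itgb8 and Itga6 overlapped in the control libraries, as did those of Itga7 and Itgb5, of Itga9 and Itga3, and of Itga3 and Itgb3. Within a library, however, Itgb8 lay above Itga6 and Itga9 above Itga3 in all 4 controls. Listed lengths in OPCs also moved with the isoform that RSEM chose, most for subunits with few counts. They ran from 2883.41 to 7020 bases for Itga9 and from 1563.12 to 4861 for Itga3. The TPM, order and shares of these low subunits therefore rest on the isoform chosen as well as on counts.

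**Figure D1:**
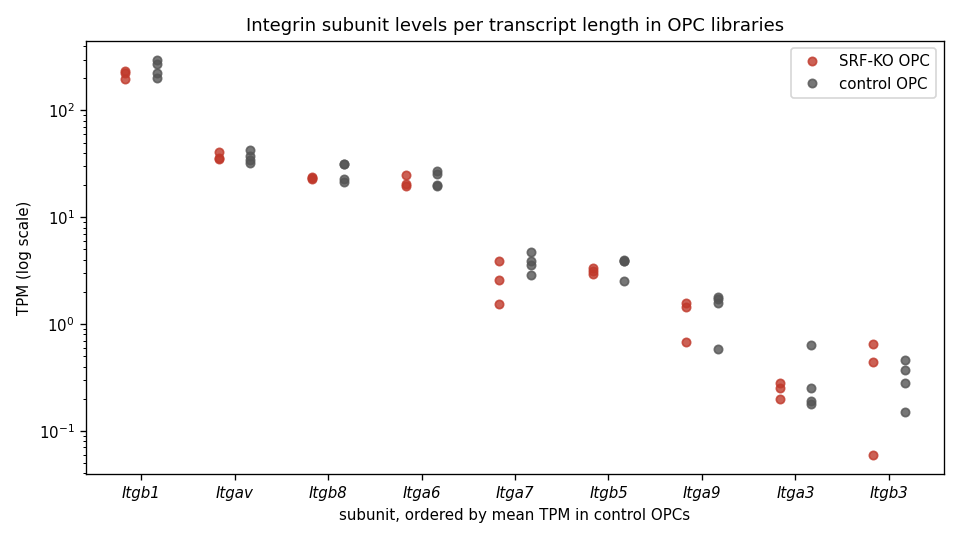
TPM (log axis) of the 9 integrin subunits in each SRF-KO OPC (n = 3) and control OPC (n = 4) library, 1 point per library, in order of the control mean. Itgb1 lies above every other subunit, at 198 to 235 TPM in SRF-KO OPCs and 200 to 295 TPM in control OPCs, and the groups overlap for each subunit.

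In dividing precursors, where the question is whether the subunits differ once Srf is removed, none of them passed the test. Of the 9 members, 8 had enough counts to be tested, and 0 of these 8 passed an adjusted p of 0.05 in edgeR's quasi-likelihood test (Benjamini-Hochberg over all 13271 genes tested), where 0.0678% of all genes tested passed. At an unadjusted p under 0.05 the count was also 0 of 8, against 11.9% of all genes tested, and DESeq2 called 0. No member separated the groups in CPM, whereas the groups did not overlap for 12.2% of all genes tested. The median log2 fold change of the 8 was -0.1, beside a median near 0 over all genes tested.

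Itgb1 had 621, 552 and 627 CPM in SRF-KO OPCs and 563, 600, 698 and 694 CPM in control OPCs. SRF-KO OPC replicate 2 was the lowest of the 7 and the other knockout values lay within the control range. The log2 fold change was -0.09 (SE 0.09, edgeR adjusted p = 0.725). Itgav, at 86.7, 88.2 and 72.3 CPM in SRF-KO OPCs and 74.5, 80.8, 74.5 and 84.6 CPM in control OPCs, gave 0.07 (SE 0.1, edgeR adjusted p = 0.818). Its highest and its lowest value were both in SRF-KO OPCs. Itga6 averaged 53.6 ± 6.01 CPM in SRF-KO OPCs (SD, n = 3) and 52.6 ± 5.29 CPM in control OPCs (SD, n = 4). Itgb8 averaged 144 ± 6.39 CPM in SRF-KO OPCs and 154 ± 22.5 CPM in control OPCs.

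Of the lower-level subunits in OPCs, Itga7 gave the smallest unadjusted p of the family, and its value moved with the library left out. It had 11.3, 4.58 and 7.29 CPM in SRF-KO OPCs and 10.7, 8.16, 11.8 and 10.5 CPM in control OPCs. The groups overlapped, and the log2 fold change was -0.43 (SE 0.28, edgeR adjusted p = 0.564), against -0.81 and -0.15 when SRF-KO OPC replicate 1 or 2 was left out, neither of which passed. Itgb5 averaged 6.86 ± 0.649 CPM in SRF-KO OPCs and 7.43 ± 1.46 CPM in control OPCs. Itga9 had 3.2, 3.6 and 3.22 CPM in SRF-KO OPCs and 6.26, 2.97, 4.5 and 3.26 CPM in control OPCs, which overlapped (log2 -0.34, SE 0.33, edgeR adjusted p = 0.706). Itgb3 rested on 4 to 25 counts per library in SRF-KO OPCs and 5 to 27 in control OPCs, and Itga3, which was not tested, on 4 to 9 and 4 to 17. Differences of these pairs were not detectable at this depth. The 3 genes whose levels followed Itga7 most closely over the 7 OPC libraries, by Pearson's r of log2 CPM among 5876 genes and over libraries of both groups, were Gclm (0.988), Fubp3 (0.983) and Hectd2 (0.979).

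**Figure D2:**
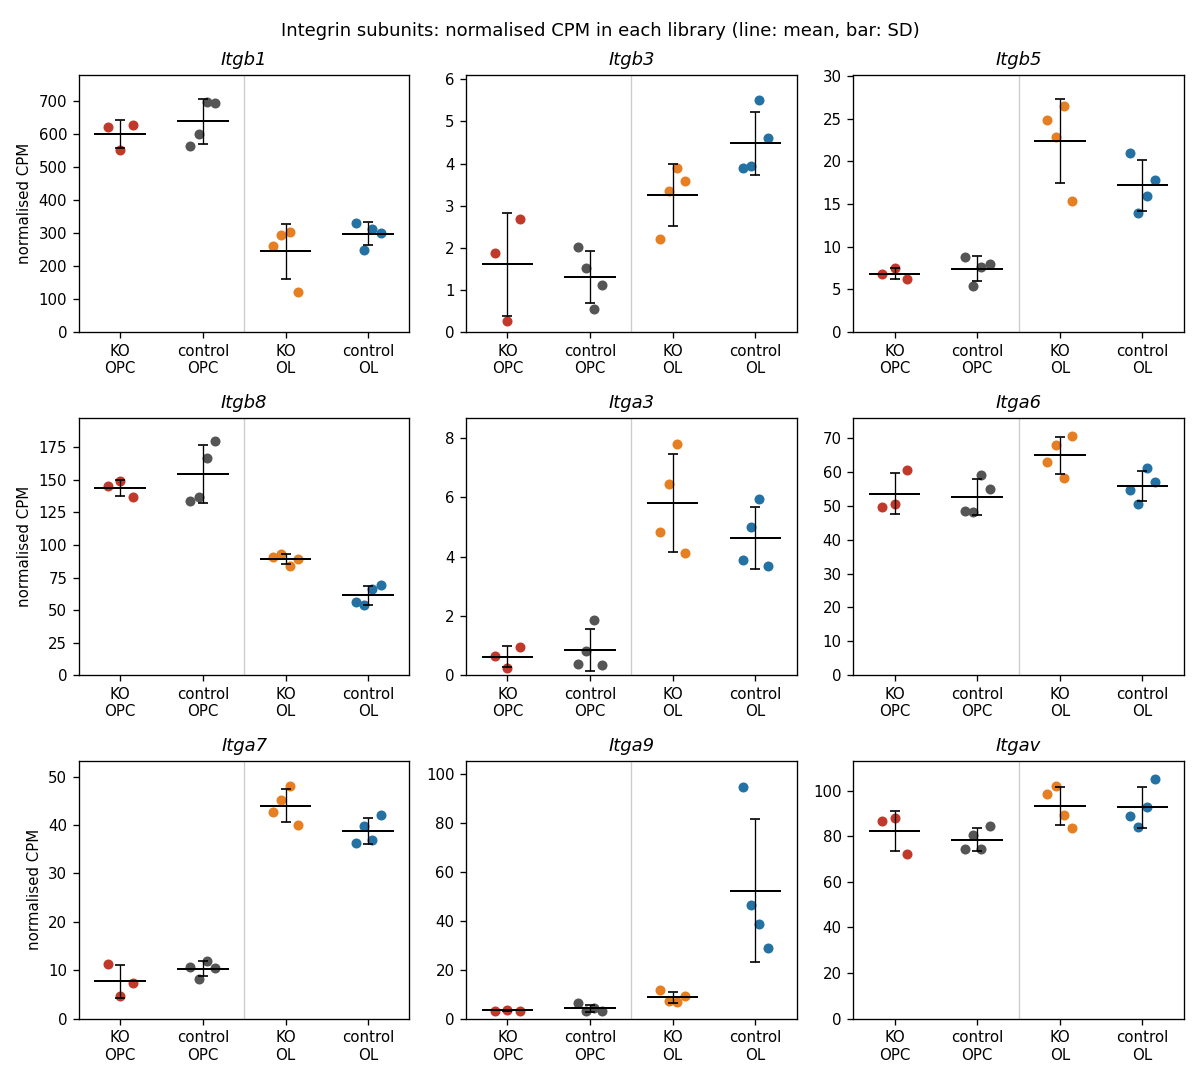
Normalised CPM of each subunit in every library of the 4 groups (SRF-KO OPC, n = 3; control OPC, SRF-KO OL and control OL, n = 4 each), with 1 point per library, the mean as a line and the SD as a bar, on axes that start at 0. In OLs, Itga9 lies at 6.77 to 11.6 CPM in SRF-KO OLs and 29 to 94.8 CPM in control OLs, and Itgb8 at 84.1 to 93.1 CPM and 53.9 to 69.4 CPM, while the groups overlap for every subunit in OPCs.

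In the differentiating cells, Itga9 fell in SRF-KO OLs relative to control OLs while no other subunit passed the test. All 9 members were tested, and 1 passed the adjusted threshold in edgeR, where 0.296% of all 15193 genes tested passed, and 0.23% did so as lower (10 higher and 35 lower, or 39 higher and 35 lower when scaled to library totals). Without SRF-KO OL replicate 4 the members called were 2 (Itga9 and Itgb8), of 636 genes in all. The groups did not overlap in CPM for 3 members (Itgb8 above, Itga9 and Itgb3 below the controls), against 8.08% of all genes tested (4.19% above and 3.9% below). The median log2 fold change of the 9 was 0.18, beside 0.02 over all genes tested. Scaling to library totals in place of TMM moved that median over all genes to 0.24, so the changes below are relative to TMM scaling. In bulk RNA, fewer cells of a type and less RNA per cell cannot be told apart.

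Itga9 had 11.6, 7.01, 6.77 and 9.41 CPM in SRF-KO OLs and 94.8, 46.6, 38.8 and 29 CPM in control OLs. The groups did not overlap, with all 4 knockout values lower, and control OL replicate 1 lay well above the other 3 controls. The log2 fold change was -2.57 (SE 0.35, edgeR adjusted p = 0.0145), which leaves 0.168 of the control level. The fall stayed between -2.78 and -2.12 when any 1 library was left out, but the call was lost without control OL replicate 2 (adjusted p = 0.052), SRF-KO OL replicate 2 (0.0571) or SRF-KO OL replicate 3 (0.104). Without SRF-KO OL replicate 4, the library that stood apart, the adjusted p was 0.00485, and with the replicate block it was 0.0313. The 3 genes that followed Itga9 most closely over the 8 OL libraries, among 4702, were mt-Ts1, a mitochondrial tRNA gene (Pearson's r = 0.975), Csrp1, a LIM-domain protein of the actin cytoskeleton (0.974), and Nkx6-2, an oligodendrocyte homeobox factor (0.97). These r values run over libraries of both groups, so they include the difference between the groups. All 3 genes were lower in SRF-KO OLs (log2 -2.45, -0.58 and -0.71, edgeR adjusted p = 0.0201, 0.17 and 0.0862). As they were picked for following Itga9, this direction is no separate result.

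What was counted as Itga9 differs between the stages. The gene (ENSMUSG00000039115, protein-coding, GRCm38 chr9:118606690-118901003, plus strand) spans 294314 bases, 41.9 times its longest spliced transcript of 7020 bases and the highest such ratio of the 9 members. In control OLs the listed length was 294314 bases in all 4 libraries, the full span, and in SRF-KO OLs it was 197096.41, 294314, 274895.5 and 123801.26. In OPC files it was 2883.41 to 7020 bases. Scaled to library totals, Itga9 averaged 46.8 CPM in control OLs and 4.22 CPM in control OPCs, a ratio of 10.0 with 0.5 CPM added to each mean, which put it at the 93.0th percentile of all genes tested. The same ratio was 0.436 for Itgb1, 0.377 for Itgb8, 0.992 for Itga6, 1.11 for Itgav and 2.09 to 3.54 for Itgb5, Itgb3, Itga7 and Itga3. In these ratios the stage and the way reads were counted cannot be told apart, so they were not tested. The 63 expected counts of the members in OPCs were whole numbers (within 1e-06) in all but 8 cases, whereas 46 of the 72 in OLs were not whole, which happens when RSEM shares reads among genes.

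An intron of 3 of the 6 annotated Itga9 isoforms holds Gm10157, a processed pseudogene of Eif1 (a translation initiation factor), at GRCm38 chr9:118837613-118837955 on the minus strand. Its 343-base transcript matched the Eif1 transcript (gene on chromosome 11) at 337 of 342 aligned bases, or 98.5%, and 151 of its 281 windows of 63 bases, the length of a read, are also in an Eif1 transcript. The longest identical run was 176 bases and lies in the Eif1 coding sequence. It is shown with 10 more bases at its 3′ end because a read from it can be placed on several genes. Among them are Eif1, Gm10157 and the gene body of Itga9. Transcripts of other genes also hold windows of Gm10157, such as Gm44705 (99 windows) and Eif1-ps1 (40). In all, 180 of its 281 windows are shared with at least 1 other gene. Both printed sequences are from the GENCODE M21 transcripts, 5′ to 3′ in the sense of the pseudogene, and the capital marks the base that differs.
Gm10157, bases 11 to 196: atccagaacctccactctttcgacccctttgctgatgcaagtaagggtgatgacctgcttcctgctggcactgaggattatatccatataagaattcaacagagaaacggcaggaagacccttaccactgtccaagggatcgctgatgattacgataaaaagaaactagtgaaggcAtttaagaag
Eif1, bases 255 to 440: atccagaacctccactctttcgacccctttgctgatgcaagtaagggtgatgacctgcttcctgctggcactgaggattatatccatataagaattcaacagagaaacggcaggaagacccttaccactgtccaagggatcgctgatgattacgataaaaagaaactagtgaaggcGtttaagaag

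Gm10157 was given 461, 394, 147 and 274 expected counts in SRF-KO OLs and 575, 644, 337 and 533 in control OLs, beside 137, 87.6, 32.8 and 49.8 for Itga9 in SRF-KO OLs and 1021, 531, 254 and 416 in control OLs. Neither Gm10157 (log2 -0.39, SE 0.19, edgeR adjusted p = 0.488) nor Eif1 (-0.16, SE 0.19, edgeR adjusted p = 0.813) passed the test in OLs, and for both the groups overlapped. In the OPC files Gm10157 had 4.1 to 9.21 expected counts in SRF-KO OPCs and 0 in all 4 control OPCs. With so few counts Gm10157 was not tested in OPCs alone, and it entered the interaction fit through its OL counts. It passed there (edgeR adjusted p = 0.0204), but the control OPCs were at 0. No size is given for that reason, and a knockout effect on Gm10157 in OPCs could not be measured. The stage and the way reads were counted cannot be told apart either. How many reads of the Itga9 total in OLs came from the pseudogene was not tested.

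Other measures separated the OL groups in the same direction as Itga9. The 482 protein-coding genes that span at least 50 kb and had 0 counts in all OPC libraries summed to 1875, 1655, 1367 and 2091 CPM of library total in SRF-KO OLs and 2700, 2313, 3059 and 2280 CPM in control OLs. The summed astrocyte markers were 13382, 14010, 12018 and 8846 CPM in SRF-KO OLs and 34480, 22485, 22692 and 17067 CPM in control OLs. Most of that sum was Gfap, and without it the other 7 astrocyte markers summed to 4077 to 5051 CPM in SRF-KO OLs and 4835 to 6308 CPM in control OLs, which overlapped, as did each of the 7. The 10 OL markers summed to 17071, 21331, 19281 and 15011 CPM in SRF-KO OLs and 41438, 31485, 27045 and 22007 CPM in control OLs. The groups did not overlap in the long genes, the astrocyte sum with Gfap or the OL markers, and control OL replicate 1 had the highest astrocyte and OL marker sums as well as the highest Itga9. Their part in the fall of Itga9 was not tested. With a per-library trend on gene length removed, Itga9 gave -2.61 (edgeR adjusted p = 0.023). That trend is fitted over all genes of a library, so it does not separate intron or pseudogene reads of Itga9 from its other reads.

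**Figure D3:**
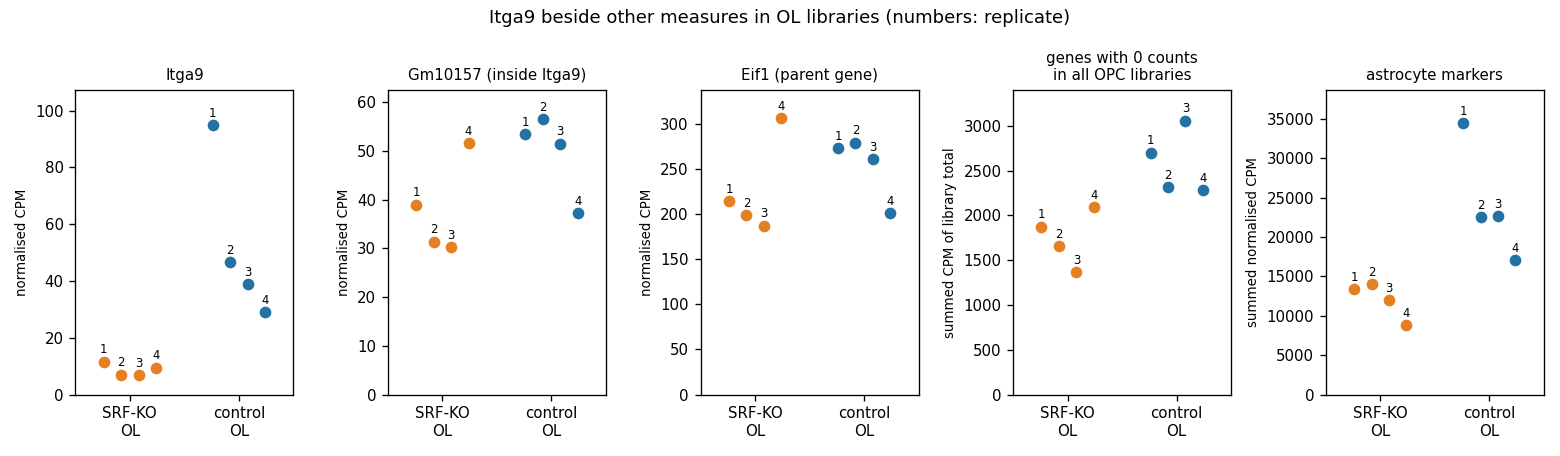
Itga9, the pseudogene Gm10157 and its parent Eif1 (normalised CPM), the summed CPM of 482 long genes with 0 counts in all OPC libraries, and the summed CPM of 8 astrocyte markers, in each SRF-KO OL and control OL library (n = 4 each, numbered by replicate, axes from 0). The groups separate for Itga9, the long genes and the astrocyte markers and overlap for Gm10157 and Eif1.

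Itgb8 was the subunit whose knockout OLs all lay above the controls. It had 91.1, 93.1, 84.1 and 88.9 CPM in SRF-KO OLs and 55.9, 53.9, 66.1 and 69.4 CPM in control OLs, on 410 to 1169 and 433 to 996 counts per library. The log2 fold change was 0.54 (SE 0.13, unadjusted p = 0.00169), but it did not pass edgeR's adjusted threshold (adjusted p = 0.161). It passed in DESeq2 (adjusted p = 0.00936) and in edgeR without SRF-KO OL replicate 4 (adjusted p = 0.0292). Its partner Itgav did not separate the groups, with 98.5, 102, 89.5 and 83.8 CPM in SRF-KO OLs and 89.1, 84, 92.7 and 105 CPM in control OLs (log2 0.01, SE 0.13, edgeR adjusted p = 0.989). Itgb3, at 2.2, 3.34, 3.9 and 3.58 CPM in SRF-KO OLs and 3.9, 3.95, 5.5 and 4.6 CPM in control OLs, lay lower in the knockouts by a margin smaller than the spread within either group (log2 -0.49, SE 0.24, edgeR adjusted p = 0.463). Itgb5 had 24.9, 22.9, 26.5 and 15.4 CPM in SRF-KO OLs and 21, 13.9, 16 and 17.8 CPM in control OLs. Its replicate 4 lay among the controls and the other 3 knockout libraries above them (log2 0.39, SE 0.18, edgeR adjusted p = 0.461, and 0.0605 without SRF-KO OL replicate 4).

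The laminin receptor subunits overlapped between the OL groups. Itgb1 had 261, 295, 303 and 123 CPM in SRF-KO OLs and 331, 250, 314 and 299 CPM in control OLs. SRF-KO OL replicate 4 lay far below the other 7 libraries, and the log2 fold change of -0.28 (SE 0.25, edgeR adjusted p = 0.735) became -0.09 without it. Itga6 averaged 64.8 ± 5.44 CPM in SRF-KO OLs and 55.8 ± 4.43 CPM in control OLs (SD, n = 4 each), a log2 fold change of 0.22 (SE 0.13, edgeR adjusted p = 0.564). Itga7 averaged 44.0 ± 3.4 and 38.8 ± 2.66 CPM, and Itga3 5.8 ± 1.65 and 4.64 ± 1.05 CPM, in SRF-KO OLs and control OLs (SD, n = 4 each), with edgeR adjusted p of 0.631 and 0.657. In OLs, TPM was not used to order the genes, because the listed length is that of a gene body. It also follows the isoform that RSEM chose, as it does in OPCs. It was 4668.91 to 5235.49 bases for Itgav, whose gene spans 82520, and 47067.77 to 47547 bases for Itgb1, whose gene spans 47547.

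**Figure D4:**
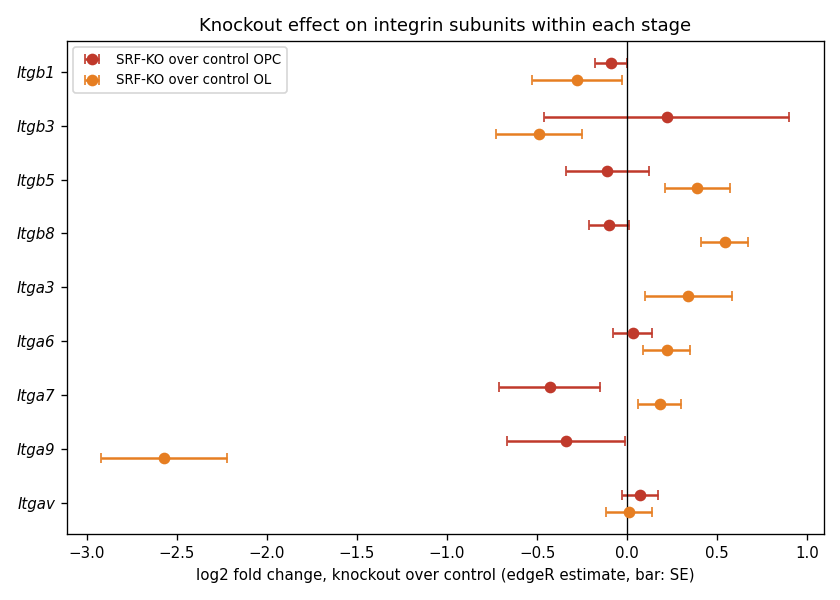
Log2 fold change of SRF-KO over control (x axis) for each subunit in OPCs (8 tested) and OLs (9 tested), with the SE as a bar. Itga9 in OLs lies at -2.57, and the other values lie between -0.49 and 0.54.

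Whether the knockout effect differed between stages was tested as an interaction over all 15 libraries. Of the 9 members 0 passed, against 0.112% of the 16135 genes tested. Itga3 entered this fit through its OL counts. It had 4 to 9 counts per library in SRF-KO OPCs and 4 to 17 in control OPCs, too few for a test there. Its difference between stages (0.77, SE 0.68) was therefore hardly measured. At an unadjusted p under 0.05 there were 3 members (Itga9, Itgb8 and Itga7), against 9.25% of all genes tested, and DESeq2 called 1, Itga9 (adjusted p = 0.00279). The effect in OLs minus that in OPCs was -2.25 for Itga9 (SE 0.51, edgeR adjusted p = 0.0924), 0.62 for Itgb8 (SE 0.19, edgeR adjusted p = 0.255) and 0.61 for Itga7 (SE 0.28, edgeR adjusted p = 0.509). The stages also differ in virus and in counting, which the interaction does not separate.

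The other subunits and the partners of integrins showed no calls in either stage in edgeR. Over all genes tested, 0.0678% passed in OPCs and 0.296% in OLs. At such shares, 0 calls in lists of this size is no result about their genes. Other settings were not examined for these lists. Of 18 further integrin subunits, 4 were tested in OPCs and 7 in OLs. Itga10, Itgad, Itgal, Itgam, Itgb2l and Itgb6 had 0 counts in all 7 OPC libraries, which allows a level of up to 0.0358 CPM over the pooled libraries (3 counts, counting error only). Itga8, a partner of Itgb1, had 52.3 ± 12.6 CPM in SRF-KO OPCs (SD, n = 3) and 47.2 ± 4.16 CPM in control OPCs (SD, n = 4), the highest mean of the 18 in control OPCs. Of 32 integrin ligands, 24 were tested in OPCs and 27 in OLs, and 0 passed. Their groups did not overlap in CPM for 1 higher and 0 lower in OPCs and for 2 higher and 1 lower in OLs. Over all genes tested the shares without overlap were 12.2% and 8.08%. The ligand with the smallest p among those whose OL groups separated was Tnr, tenascin-R, with 135 ± 6.41 CPM in SRF-KO OLs and 177 ± 11.9 CPM in control OLs (SD, n = 4 each; log2 -0.4, edgeR adjusted p = 0.269). Tnr is a matrix protein made by oligodendrocytes. The laminin chains Lama3 and Lamb1 lay higher in every SRF-KO OL library (log2 0.93 and 0.46, edgeR adjusted p = 0.388 and 0.617) on 15 counts or fewer per library. In OPCs the groups separated for Mfge8, a ligand of Itgav receptors (log2 0.12, edgeR adjusted p = 0.552).

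Among 38 integrin adaptors and signalling genes, 33 were tested in OPCs and 36 in OLs. In edgeR 0 passed in either stage, where 0.0678% and 0.296% of all genes tested passed. The median log2 fold change was -0.07 in OPCs and -0.13 in OLs, beside medians near 0 and of 0.02 over all genes tested. The groups did not overlap in CPM for 1 higher and 3 lower in OPCs and for 0 higher and 3 lower in OLs. Over all genes tested these shares were 12.2% and 8.08% in either direction. At an unadjusted p under 0.05 there were 1 higher and 4 lower in OPCs and 0 higher and 5 lower in OLs, against 11.9% and 11.6% of all genes tested in either direction. In OPCs the genes with the smallest p whose groups separated were Cd81, a tetraspanin that associates with integrins (log2 0.32, edgeR adjusted p = 0.256), Rsu1, a member of the ILK complex (-0.27, edgeR adjusted p = 0.29), and Vcl, vinculin, a known SRF target that links talin to actin (-0.45, edgeR adjusted p = 0.337). In OLs they were Fyn, a kinase downstream of integrins in oligodendrocytes, with 252 ± 72.5 CPM in SRF-KO OLs and 404 ± 48.8 CPM in control OLs (log2 -0.68, edgeR adjusted p = 0.269), Bcar1, a docking protein (-0.42, edgeR adjusted p = 0.356), and Pxn, paxillin (-0.3, edgeR adjusted p = 0.41). The knockout libraries were uneven for Fyn, at 144 to 298 CPM against 359 to 473 CPM in control OLs. For Bcar1 they ranged from 56.1 to 89.9 CPM against 96.7 to 115 CPM.

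Of 11 other laminin receptor genes, all tested, 0 passed in either stage, where 0.0678% and 0.296% of all genes tested passed. The groups did not overlap in CPM for 1 of them in OPCs and 0 in OLs, against 12.2% and 8.08% of all genes tested. Sgcb, a sarcoglycan of the dystroglycan complex, had 84.5 ± 8.17 CPM in SRF-KO OPCs (SD, n = 3) and 60.1 ± 7.82 CPM in control OPCs (SD, n = 4; log2 0.49, edgeR adjusted p = 0.207). Integrins of Itgav and Itgb8 release TGF-beta from its latent form. Of 15 genes for its storage, activation and reception, 11 were tested in each stage. Of these 0 passed, against 0.0678% and 0.296% of all genes tested. Their groups did not overlap in CPM for 1 higher and 2 lower in OPCs and for 2 higher and 1 lower in OLs. Over all genes tested the shares without overlap were 12.2% and 8.08%. The receptor Tgfbr1 had 43.5 ± 2.21 CPM in SRF-KO OPCs and 56.0 ± 5.72 CPM in control OPCs, and 14.1 ± 1.02 CPM in SRF-KO OLs and 10.2 ± 0.686 CPM in control OLs. Its groups separated in opposite directions in the stages (log2 -0.36 and 0.47, edgeR adjusted p = 0.267 and 0.202). The effect in OLs minus that in OPCs was 0.82 (SE 0.17, unadjusted p = 0.000161), which did not pass (edgeR adjusted p = 0.0659). Smad7, an inhibitor that TGF-beta induces, had 15.3 ± 2.77 CPM in SRF-KO OLs and 23.1 ± 2.73 CPM in control OLs (log2 -0.57, edgeR adjusted p = 0.198). The groups also separated for Tgfb2 (log2 0.41, edgeR adjusted p = 0.347) and Ltbp3, which stores latent TGF-beta (-0.55, edgeR adjusted p = 0.37), in OPCs, and for Tgfb3 in OLs (0.39, edgeR adjusted p = 0.414).

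RefSeq promoter windows (GRCm38.p6, 250 bases before to 50 after a start) were given for 6 of the 9 members, 7 windows in all. The CArG box, the motif that SRF binds, was searched for on both strands, and 0 of the 7 windows held it, against 1.63% of 32851 windows. At so low a share, 0 is the usual outcome for 7 windows, so the search says nothing about SRF sites at these genes. The Itga9 window lies inside the gene, near the start of a shorter isoform.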

How the data were processed

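The members, gene lists and tests were chosen with earlier results of these data known. The labels' protocols name Smart-seq2 libraries from polyA RNA, sequenced as single reads of 63 bases. The submitters' processing notes name bcl2fastq, STAR and RSEM without versions, and the builds GRCm38 and Rnor_6.0. The deposited values are RSEM expected counts per gene, in which reads that match several genes are shared out, and TPM, which the authors made from them by effective length, per the file headers. FPKM was not used. Among 8995 genes with 1 transcript and an intron, the listed length equalled the GENCODE M21 spliced length in 89.8% of cases in each OPC file and the genomic span in 90% in each OL file. From this it is inferred that OL counts cover introns, so TPM was compared within OPCs alone. The strand of a read is not kept, and reads of overlapping genes cannot be told apart. In spliced transcripts, windows of 63 bases shared with other annotated genes made up 6.8% of Itgb5, 5.3% of Itgav and 4.9% of Itga6. Introns were not searched, so these shares do not measure how many reads could be placed elsewhere in OLs.

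After rounding, the counts were tested in R 4.3.3 with edgeR 4.0.16 (filterByExpr, TMM, quasi-likelihood F-tests, Benjamini-Hochberg over all genes tested, threshold 0.05), on the libraries of a stage or, for the interaction, on all 15. The SE was derived from the F statistic and is no separate measure of spread. The tests were run on simulated counts beforehand. Alternatives were DESeq2 1.42.0, other scalings and filters, a replicate block, a length trend per library, a fit of all 15 libraries and leaving out each library. All 9 members were named. From each pathway list, genes called were named, otherwise up to 3 with the smallest p and no overlap between groups. Others (Itga8, Itgam, Itgal and Itgb6, the markers Cx3cr1, P2ry12, C1qa, C1qb and Acta2, and Gm10157 and Eif1) were chosen after their values were seen. The genes most like a member were sought among those with average log2 CPM of at least 5. The summed level of the microglia markers rests on an item that is not reported here.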

Additional observations from a re-analysis of the deposited data

How the results depend on the processing

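Of the 9 members, 0 were called in OPCs under any alternative run. The genes called there numbered 9 (3 higher and 6 lower), against 121 with DESeq2, 101 with no filter, 25 with the length trend removed, 31 in the fit of all 15 libraries and 1 to 4 when a library was left out. In OLs the 45 genes called (10 higher and 35 lower) became 289 with DESeq2, 74 with library totals (39 higher and 35 lower), 129 with no filter, 96 in the fit of all 15 libraries and 7 to 636 when a library was left out. The members called there were 1, against 2 with DESeq2 and 0 to 2 when a library was left out. For the interaction the 18 genes called became 166 with DESeq2, 88 with no filter, 41 with the length trend removed and 4 to 134 when a library was left out. Its members called were 0, against 1 with DESeq2, 1 with no filter and 0 to 1 when a library was left out; the 1 was Itga9 each time, and without control OL replicate 4 its adjusted p was 0.0332 in edgeR. The causes of these moves were not tested.

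The replicate numbers are not known to mark pairs. Deviations of same-numbered libraries correlated at -0.016 to 0.049 in OPCs and at -0.281 to 0.026 in OLs. Differently numbered ones gave -0.051 to 0.051 and -0.227 to 0.284. Pairing was thus not seen, but so few libraries per group cannot exclude it. With the replicate block, edgeR called 2 genes in OPCs, 5 in OLs and 0 for the interaction (1078 at an unadjusted p under 0.05, and 166 by DESeq2 without the block). With the block and the length trend removed the counts were 5, 6 and 8. Itga9 in OLs passed under both (adjusted p = 0.0313 and 0.0456).

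The signs that turned belong to differences that did not pass. In OPCs, Itgb3, at 0.22 on few counts, was -0.071 with the block and -0.046 with block and length trend, and -0.395 to 0.778 when a library was left out. Itgb8 was 0.017 with block and length trend, and Itga6 -0.068 to 0.087 when a library was left out. In OLs, Itgav was -0.006 with DESeq2, -0.003 with RLE size factors, -0.019 in the fit of all 15 libraries, and -0.035 to 0.076 when a library was left out. For the interaction, library totals gave 0.024 for Itgb1 and 0.131 for Itgav, and leaving out a library gave -0.32 to 0.021 and -0.175 to 0.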
